A study of Mus musculus with 2 samples.

Results

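Respiratory complex I, NADH:ubiquinone oxidoreductase, is the entry point of the mitochondrial respiratory chain. Its peripheral arm takes electrons from NADH through flavin and iron-sulphur clusters to ubiquinone, and its membrane arm pumps protons. The nuclear genes of its core and accessory subunits and of several of its assembly factors carry symbols that begin with Nduf, and the remaining core subunits are encoded in mitochondrial DNA. Skeletal muscle, which is rich in mitochondria, is among the tissues affected when these genes are mutated in humans.

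The 46 genes described here are all protein-coding genes of the mouse annotation (GENCODE M21) whose symbol begins with Nduf, out of 15747 annotated genes with at least 1 read. All 46 had reads in both libraries and passed the minimum of 10 reads for the tests. By role, 7 are core and 9 accessory subunits of the peripheral arm, 9 and 10 are subunits of the proximal and distal membrane arm, 1 is the mitochondrial acyl carrier protein Ndufab1, and 8 are assembly factors Ndufaf1 to Ndufaf8. The last 2 carry the symbol only: Ndufa4 is now counted as a subunit of complex IV, and Ndufa4l2 is its paralogue. The assignment to roles is textbook knowledge and not a result.

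The tissue was gastrocnemius, the large calf muscle, of female B6CASTF1/J mice at 14 days after birth, an F1 hybrid of C57BL/6 and CAST, and total RNA (2 µg) was read as long reads with ERCC and SIRV spike-in RNAs. The series holds 1 group of 2 libraries, biological replicates 1 and 2, with no treatment and no contrast, so the comparison that the design allows is between the libraries. Replicate 1 is labelled as 3 females, replicate 2 carries no number of animals, and pooling of tissue is not given in the sources used. The depth was 1316937 reads in replicate 1, of which 1248854 fell in annotated genes, against 1204188 and 1106450 for replicate 2. All 8 markers of the skeletal muscle fibre had reads and together took 30.4% and 22.5% of gene reads in replicates 1 and 2, while the 5 fibroblast markers held 0.798% and 0.345% and the 4 Schwann cell markers 0.0570% and 0.245%. Of the 3 heart markers 1 had reads in replicate 1 and 2 had reads in replicate 2, with summed levels of 7.21 and 2.71 CPM, and Nppa was at 0 in both. In a bulk sample fewer cells of a type and less RNA per cell cannot be told apart.

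The 2 libraries also differed in the length of what they held: averaged over reads, the transcript model was 2347 bases long in replicate 1, against 1545 bases in replicate 2. Most Nduf genes had short models, with the length averaged over reads and incomplete models counted. Of the 46 genes 5 had a mean model length of up to 500 bases and 24 one between 500 and 1000 bases. Among those 5 are Ndufa4, Ndufb3 and Ndufs7, whose main annotated forms are 610, 763 and 758 bases long. A level here is reads per 1000000 gene reads (CPM), in which each read counts as 1 whatever its length, and levels were not divided by length. The ratio between the libraries changed with model length, as given below. Comparisons of levels between genes or arms of different length are uncertain to that extent. A single read added 0.801 CPM in replicate 1, against 0.904 CPM in replicate 2, and 3 reads, the limit that a count of 0 allows, 2.40 and 2.71 CPM. Intervals and p-values cover counting error only and compare these 2 libraries, not animals or conditions.

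Most Nduf genes were read as 1 dominant splice form. Among coding exons that part of the reads skipped, or that only a minority took in, 4 with a length that is a multiple of 3 were picked. Their sequences are shown because each exon adds or removes whole codons. All come from the GENCODE M21 transcripts of build mm10 (GRCm38), 5′ to 3′ on the coding strand, with the exon in capitals and 15 bases of the neighbouring exons in lower case. The first is the 1092-base exon 3 of Ndufv3 (chr17:31527310-31528401, plus strand), 364 codons long, of which the first 90 bases are given. The line after it is the junction of the short Ndufv3 form that skips this exon, 30 bases on either side, with the bases of the last exon in capitals.
Ndufv3 exon 3, start: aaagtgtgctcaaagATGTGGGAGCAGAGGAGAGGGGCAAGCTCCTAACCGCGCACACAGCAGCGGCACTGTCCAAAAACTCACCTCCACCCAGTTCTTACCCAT
Ndufv3 short form: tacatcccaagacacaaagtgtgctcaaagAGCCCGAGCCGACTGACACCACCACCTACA
The others are whole exons: a 117-base exon of Ndufa5 (exon 3, chr6:24522659-24522775, minus strand, 39 codons), a 57-base exon of Ndufaf6 (exon 4, chr4:11066651-11066707, minus strand, 19 codons) and a 144-base exon of Ndufaf7 (exon 8, chr17:78944941-78945084, plus strand, 48 codons).
Ndufa5 exon 3: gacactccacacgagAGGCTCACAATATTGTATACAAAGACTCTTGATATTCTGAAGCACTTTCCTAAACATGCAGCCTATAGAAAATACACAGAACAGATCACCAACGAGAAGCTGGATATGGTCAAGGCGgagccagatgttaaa
Ndufaf6 exon 4: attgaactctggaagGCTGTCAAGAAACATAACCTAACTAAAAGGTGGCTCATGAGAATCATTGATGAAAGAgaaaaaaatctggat
Ndufaf7 exon 8: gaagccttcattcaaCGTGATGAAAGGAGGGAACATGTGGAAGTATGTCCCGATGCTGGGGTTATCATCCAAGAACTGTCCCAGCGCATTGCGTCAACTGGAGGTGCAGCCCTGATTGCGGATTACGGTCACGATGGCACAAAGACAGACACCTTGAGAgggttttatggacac

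The 46 genes held 20609 reads in replicate 1 and 37650 in replicate 2. Their share of gene reads was 1.65% in the first library (1.63 to 1.67%, Wilson 95% interval) and 3.40% in the second (3.37 to 3.44%). The average was 2.53% ± 1.24 (SD, n = 2). The 36 subunits, with Ndufab1, held 1.47% and 2.97%. Among the arms, the distal membrane arm held 0.434% and 0.960%, the proximal membrane arm 0.325% and 0.743%, the accessory subunits of the peripheral arm 0.287% and 0.672% and its 7 core subunits 0.376% and 0.501%. The core subunits therefore held the second largest share of these in replicate 1 and the smallest in replicate 2. Their median model length was 1542 bases, against 574 for the accessory, 570 for the proximal and 708 for the distal subunits. The 8 assembly factors, which act on intermediates and are not part of the finished enzyme, were far lower, with 0.0241% and 0.0447%, or 241.0 and 447.4 CPM summed over all 8. For scale, 47 nuclear genes of complexes II to V held 4.18% and 6.84%, and 78 genes of mitochondrial ribosomal proteins 0.505% and 0.901%.

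Ndufa4 was the highest of the 46, with 1888 reads in replicate 1 and 4308 in replicate 2 (2703 ± 1684 CPM, SD, n = 2), although its product sits in complex IV. With full splice models alone (reads per 1000000 full splice reads) it was at 1499.1 CPM and Ndufc1 at 1499.2 CPM, practically level. Ndufa4 stayed first in replicate 1, with 1022 full splice reads against 849 for Ndufv1 and 820 for Ndufc1. In replicate 2 Ndufc1 was ahead, with 2018 against 1856. The clear lead of Ndufa4 in mean level therefore rested on incomplete models, described below. Its paralogue Ndufa4l2, best known as a target of hypoxia, had 20 and 35 reads (23.8 ± 11.0 CPM). Among the true subunits the highest mean levels belonged to Ndufs7 (1281 ± 824.0 CPM), Ndufc1 (1248 ± 827.9 CPM), Ndufb7 (1213 ± 807.4 CPM) and Ndufa13 (1080 ± 650.7 CPM). The differences among these 4 means were smaller than the spread between the libraries. With full splice models Ndufs7 was at 599.4 CPM and Ndufa13 at 13.3 CPM, and the highest subunits were Ndufc1, Ndufb7 (1455 CPM), Ndufb9 (1053 CPM) and Ndufa2 (1024 CPM). With all models Ndufs7, Ndufc1, Ndufb7 and Ndufa13 each had at least 2 times as many reads in replicate 2. The reads were 872 and 2062 for Ndufs7, 828 and 2029 for Ndufc1, 802 and 1974 for Ndufb7, and 774 and 1704 for Ndufa13.

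The subunits, which enter the enzyme in equal numbers apart from Ndufab1, were compared by their range of read levels with all models. In replicate 1 Ndufv1 was highest at 699.8 CPM and Ndufs5 lowest at 110.5 CPM, a 6.33-fold range, and 34 of 36 were within 2-fold of their median of 390.0 CPM. In replicate 2 the range was 8.35-fold, between Ndufs7 at 1864 CPM and Ndufa9 at 223.2 CPM, and 25 of 36 were within 2-fold of the median of 787.2 CPM. With full splice models the range was 77.2-fold in replicate 1 and 134.5-fold in replicate 2, or 6.24-fold and 9.39-fold without Ndufa13, and 31 and 24 of 36 were within 2-fold of the median. The coefficient of variation over the subunits with all models was 40.7% in replicate 1 and 55.1% in replicate 2. Their order was shared in part, with a Spearman rho between the libraries of 0.56 over the 36 subunits and 0.79 over all 46 genes, given as a description without a test.

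**Figure D1:**
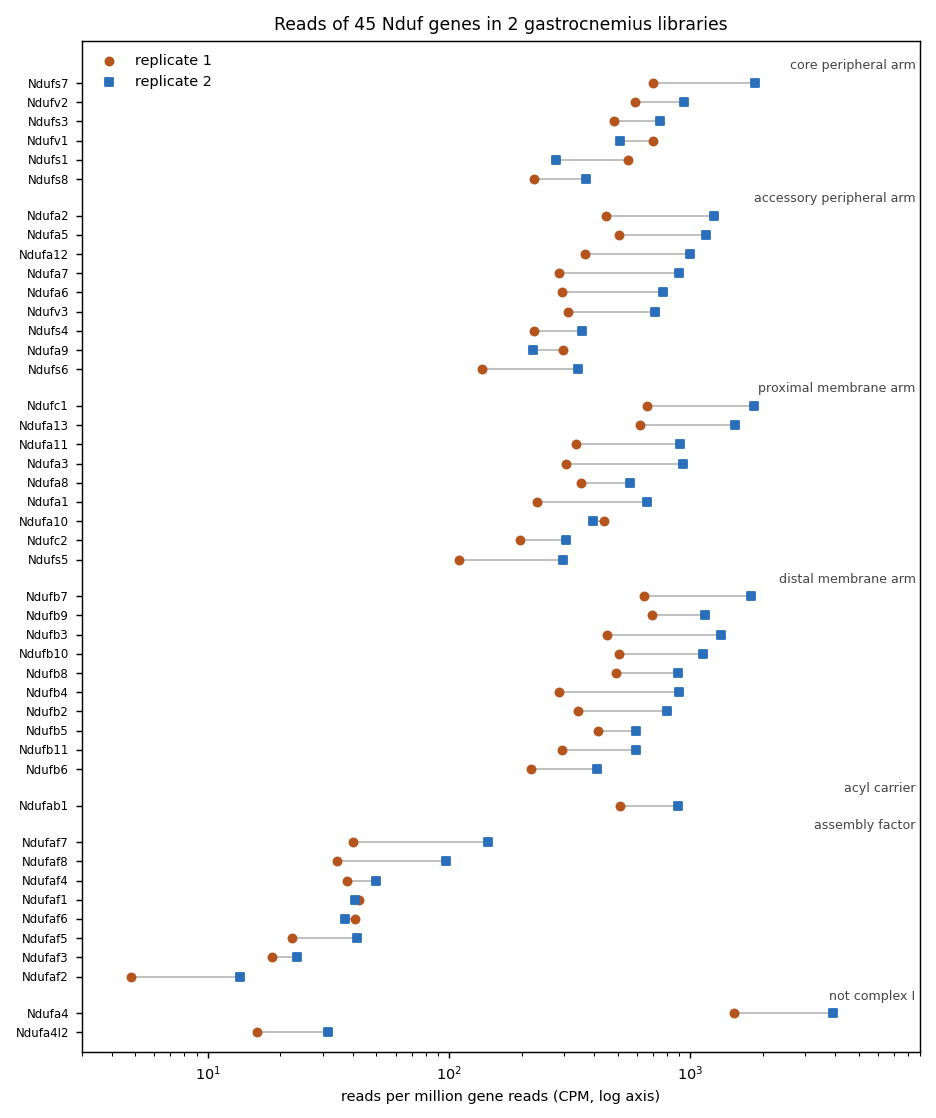
Reads per 1000000 gene reads (log axis) of 45 of the 46 Nduf genes, ordered by role and within it by mean level, in replicate 1 (circles) and replicate 2 (squares), with a grey line joining the 2 values of a gene. Most genes are higher in replicate 2, Ndufs1 (553.3 and 277.5 CPM) and Ndufv1 (699.8 and 512.5 CPM) are higher in replicate 1, and the assembly factors sit below the subunits.

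Between the libraries, replicate 1 had the higher level for 0 of the 46 Nduf genes by the test, and replicate 2 for 30. A gene was called with an adjusted p under 0.05 (Fisher's exact test, two-sided, Benjamini-Hochberg over 8973 genes) and a log2 ratio, replicate 1 over replicate 2 of TMM-scaled CPM, of at least 1 in size. Of all tested genes 8.87% were called higher in replicate 1 and 11.4% in replicate 2. The median log2 ratio of the 46 was -1.38, and that of all genes 0.01. On this scale replicate 1 was the higher library for 4 Nduf genes, Ndufs1, Ndufv1 and Ndufa9 among them. They passed the adjusted p (also the 4 at an unadjusted p under 0.05) but not the limit on size. The Fisher test was run on read counts without TMM scaling, which entered the log2 ratio only. For Ndufs1, Ndufv1 and Ndufa9 the p-value therefore belongs to the log2 ratios with scaling by the total, 0.99, 0.45 and 0.41.

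The core subunits of the peripheral arm were split. Ndufs1, the largest subunit, which carries iron-sulphur clusters, had 691 reads in replicate 1 and 307 in replicate 2 (log2 ratio 0.71). Ndufv1, which binds NADH and the flavin, had 874 and 567 reads (0.17). Both had more reads in replicate 1. Ndufs7, the iron-sulphur subunit next to ubiquinone, went the other way with 872 and 2062 reads and was called (log2 ratio -1.70), as was the iron-sulphur subunit Ndufs8 with 281 and 411 reads (-1.01). Ndufv2, with 738 and 1043 reads, and Ndufs3, with 606 and 831, missed the size limit with log2 ratios of -0.96 and -0.91. Thus 2 of 7 core subunits were called, and 11.4% of all tested genes. With full splice models 4 of 7 were called (10.9% of all genes), with Ndufs7 at -1.09. With the trend over length removed, as described below, 0 of 7 were called (4.88% of all genes).

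Of the 9 accessory subunits of the peripheral arm, 7 were called higher in replicate 2 (11.4% of all tested genes), and 0 with the length trend removed. The highest were Ndufa2 with 560 and 1394 reads (log2 ratio -1.77), Ndufa5 with 635 and 1285 (-1.47) and Ndufa12 with 456 and 1104 (-1.73). Ndufa7 had 356 and 994 reads (-1.94), the second largest difference among all 46. Ndufa6, which anchors an acyl carrier protein, had 366 and 855 reads (-1.68), and Ndufv3 had 389 and 787 (-1.47). The zinc-binding Ndufs6 was also called, with 171 and 380 reads (-1.61). Ndufs4, mutated in human Leigh syndrome, had 280 and 392 reads (-0.94) and Ndufa9 370 and 247 (0.12), and neither was called.

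In the proximal membrane arm 6 of 9 subunits and in the distal membrane arm 9 of 10 were called higher in replicate 2 (11.4% of all tested genes). With the length trend removed 1 of 9 and 1 of 10 were called. Of the proximal subunits Ndufa3 had 382 and 1030 reads (log2 ratio -1.89), Ndufa1 290 and 734 (-1.80), and Ndufa11 418 and 999 (-1.71), while Ndufc1 was at -1.75 and Ndufa13 at -1.60. Ndufa10, which has the fold of a nucleoside kinase, was nearly level with 546 and 439 reads (-0.14, and 0.14 with scaling by the total). Ndufs5, the lowest subunit in replicate 1, was called with 138 and 328 reads (-1.70), and Ndufa8 (-0.95) and Ndufc2 (-0.92) were not. Of the distal subunits Ndufb4 had 356 and 991 reads (-1.93), Ndufb3 565 and 1489 (-1.86), Ndufb7 -1.76, Ndufb10 634 and 1251 (-1.44) and Ndufb9, which like Ndufa6 binds an acyl carrier, 866 and 1269 (-1.01). The other called distal subunits were Ndufb2 (-1.51), Ndufb11 (-1.31), Ndufb6 (-1.19) and Ndufb8 (-1.15). Ndufb5, with 518 and 658 reads (-0.80), was the 1 distal subunit not called. Ndufab1, the acyl carrier itself, had 639 and 983 reads and was called (-1.08).

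Of the 8 assembly factors 3 were called higher in replicate 2 (11.4% of all tested genes), and with the length trend removed only Ndufaf4 was. Ndufaf7, an arginine methyltransferase, had 50 and 160 reads (log2 ratio -2.12, the largest of all 46), Ndufaf8 had 43 and 107 (-1.76) and its partner Ndufaf5, known from human cells to hydroxylate an arginine of Ndufs7, 28 and 46 (-1.16). The Ndufaf5 call was lost on full splice models, where it had 26 and 29 reads (-0.75, adjusted p = 0.374, Fisher's exact test), and with scaling by the total (-0.88). Incomplete matches were 2 and 17 of its reads. Models with an unannotated splice site, 3 and 13 reads, are counted among the full splice reads. Of these, 2 and 12 reads were a 3-exon model of 355 bases, while the known form has 11 exons. With known models alone Ndufaf5 had 22 and 16 reads and a log2 ratio of -0.13. The other assembly factors had few reads and were not called. Ndufaf4 had 47 and 55 reads, Ndufaf1 53 and 45, Ndufaf6 51 and 41, Ndufaf3 23 and 26, and Ndufaf2, which holds the place of Ndufa12 during assembly, 6 and 15, the lowest of the 46 (9.18 ± 6.19 CPM). Both genes outside complex I were called, Ndufa4 with a log2 ratio of -1.65 and Ndufa4l2 with -1.24.

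These calls moved with mean model length. That length was averaged over the same reads that were compared, so short incomplete reads enter both it and the ratio. In genes with many incomplete reads the 2 are therefore not independent measures. All 5 Nduf genes with a mean model length of up to 500 bases were called higher in replicate 2, 21 of 24 between 500 and 1000 bases, 3 of 14 between 1000 and 2000 bases and 1 of 3 between 2000 and 4000 bases. Over all tested genes of the same classes the shares were 71.3%, 50.9%, 10.5% and 1.97%. The median log2 ratios of the Nduf genes in these classes were -1.80, -1.54, -0.71 and -0.68, and those of all tested genes -1.86, -1.28, -0.34 and 0.34. The Spearman rho between log2 ratio and length was 0.70 over the 46 genes and 0.60 over all 8973, as a description over genes that share the 2 libraries. With the trend of the ratio over length removed, 0 of 46 genes were higher in replicate 1 (2.55% of all genes) and 3 in replicate 2 (4.88%), by an exact binomial test with the same limits, and the median log2 ratio of the 46 was -0.11. At an unadjusted p under 0.05 that fit gave 8 and 15. Full splice models alone gave 0 calls for replicate 1 and 31 for replicate 2 (11.5% and 10.9% of all genes). Of the 30 genes called with all models 26 stayed called, Ndufa13, Ndufa4l2, Ndufaf5 and Ndufaf7 were lost, and Ndufa8, Ndufc2, Ndufs3, Ndufs4 and Ndufv2 were gained with log2 ratios of -1.10 to -1.02. With full splice models and the trend removed there were 0 and 4 calls (2.37% and 4.44%). With adjusted p alone 4 and 36 genes passed (18.8% and 13.3%), with scaling by the total 0 and 23 (12.5% and 9%) and with DESeq2 size factors 0 and 28 (9.7% and 10.8%). Under an edgeR exact test with the dispersion estimated from the 2 libraries taken as 1 group, 0 of 46 were called in either direction (0.0111% and 0.111% of all genes), with 0 and 16 at an unadjusted p under 0.05. That dispersion includes the difference between the libraries that is under test, so the lack of calls decides nothing about these genes.

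The 3 genes called with the length trend removed were Ndufb2, Ndufc1 and Ndufaf4. Ndufb2, a distal membrane arm subunit, had 427 and 887 reads, and its log2 ratio was -1.78 with the trend removed against -1.51 before. Its 2 main forms have annotated lengths of 4371 and 455 bases although they differ in their introns only by a donor site, so that the length entered for it rests on the annotated end. Ndufc1 was at -1.13 and Ndufaf4, not called before, at -1.12. The core subunits Ndufs1 (0.43) and Ndufv1 (0.41) and the accessory Ndufa9 (0.60) were above 0 in that fit and below the size limit. The 45 tested genes of complexes II to V gave 0 calls towards replicate 1 and 28 towards replicate 2, and 0 and 1 with the trend removed. The 78 genes of mitochondrial ribosomal proteins gave 0 and 36, and 2 and 15 with the trend removed. Whether Nduf genes differ from those sets was not tested.

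**Figure D2:**
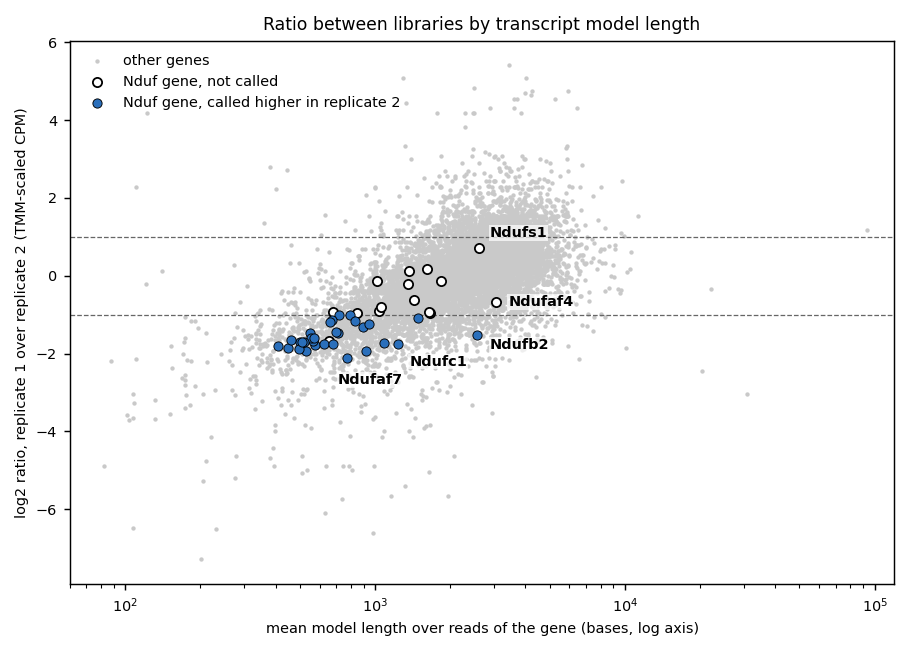
Log2 ratio of TMM-scaled CPM, replicate 1 over replicate 2, against the mean model length of a gene in bases (log axis) for the 8973 tested genes (grey; 3 shorter than the left edge are not drawn) and 45 of the 46 Nduf genes (filled where called higher in replicate 2, open where not). Dashed lines mark log2 ratios of 1 and -1. Genes of both kinds with short models lie low. Between 1000 and 2000 bases the median is -0.71 for Nduf genes and -0.34 for all tested genes. Ndufs1 is at 0.71, Ndufaf7 at -2.12 and Ndufb2 at -1.51.

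Of 12 further assembly factors, 11 had reads; Coa1 was at 0 in both libraries. The 4 highest were Tmem70 (206.9 ± 53.7 CPM), Ecsit (101.8 ± 27.3 CPM), Tmem126a (67.0 ± 38.2 CPM) and Foxred1 (38.5 ± 13.5 CPM). Tmem126a, with 50 and 104 reads, and Dmac1, with 22 and 62 reads, were called higher in replicate 2, and 0 of the 11 remained called with the trend removed. Of the subunits encoded in mitochondrial DNA, mt-Nd1 had 90 and 214 reads, mt-Nd2 58 and 136, mt-Nd4 33 and 75 and mt-Nd5 27 and 49. All 4 were called higher in replicate 2, mt-Nd4 and mt-Nd5 also with the trend removed. With 0 and 3 reads mt-Nd3, and with 0 and 1 mt-Nd4l, were too low to be tested. These reads were far fewer than those of a typical nuclear subunit, and mt-Nd6 had 0, which allows up to 2.40 CPM in replicate 1 and 2.71 CPM in replicate 2.

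Nearly all reads of most Nduf genes followed an annotated intron chain from end to end. Each read belongs to 1 class of transcript model: known, incomplete splice match (part of a known chain), an unannotated combination of known splice sites, an unannotated splice site, or genomic (no splicing of the gene). Known models held 83.6% of Nduf reads in replicate 1 and 77.4% in replicate 2, against 69.6% and 71.9% over all protein-coding genes. Unannotated combinations held 1.14% and 0.571% and models with an unannotated splice site 1.09% and 0.799%, against 5.14% and 3.37%, and 14.3% and 5.35%, over all protein-coding genes. Incomplete splice matches were the exception, with 13.9% and 20.7% against 8.93% and 13.1%. In the genes of complexes II to V known models held 86.3% and 82.6%, unannotated splice sites 0.899% and 0.847% and incomplete matches 10.9% and 15.4%. In those of mitochondrial ribosomal proteins the shares were 85.2% and 73.3%, 6.12% and 8.58%, and 3.06% and 4.88%. Differences from these 2 sets were not tested.

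The incomplete reads of the Nduf genes came from a few genes. Ndufa13, Ndufa4, Ndufb3 and Ndufs7 held 83.4% of them in replicate 1 and 84.7% in replicate 2, and in the other 42 genes incomplete matches were 2.90% and 4.25% of reads. In the median Nduf gene 97.0% and 95.6% of reads were of full splice models. The 4 genes and Ndufaf7 are described 1 by 1.

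Ndufa13, also known as GRIM-19, had no read of its full annotated form. Of its reads 756 of 774 in replicate 1 and 1667 of 1704 in replicate 2, 97.7% and 97.8%, were a 4-exon incomplete match of 573 bases. This model holds 100% of the coding region of Ndufa13-201, the only annotated transcript, which has 1 further exon upstream. Full splice reads numbered 11 and 15, all of unannotated chains. With full splice models alone the level of Ndufa13 was 13.3 CPM, against 1080 CPM with all models. No read was assigned to the known model.

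In the other cases the incomplete model holds only the 3′ part of the coding region. For Ndufs7 a 2-exon model of 247 bases, with 27.4% of the coding region, had 361 reads in replicate 1 and 1340 in replicate 2, or 41.4% and 65.0% of the gene. For Ndufa4 a 2-exon model with 46.7% of the coding region had 849 and 2439 reads, or 45.0% and 56.6%. For Ndufb3 a single-exon model of 316 bases, with 49.4% of the coding region, had 386 and 1088 reads, or 68.3% and 73.1%. In each of the 3 the share was the larger one in replicate 2, which was not tested. For the assembly factor Ndufaf7 a single-exon model had 23 of 50 and 131 of 160 reads, 46.0% and 81.9%, and the full splice reads were 26 and 28. On full splice reads Ndufaf7 had a log2 ratio of -0.70 and was not called (adjusted p = 0.433, Fisher's exact test), so the largest difference among the 46 rested on the single-exon model. Ndufb4 had 3 and 92 reads of a 119-base model of 1 exon, Ndufb10 3 and 73 and Ndufa11 0 and 66 of a like kind, which were few beside 356 and 991, 634 and 1251, and 418 and 999 reads in all.

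**Figure D3:**
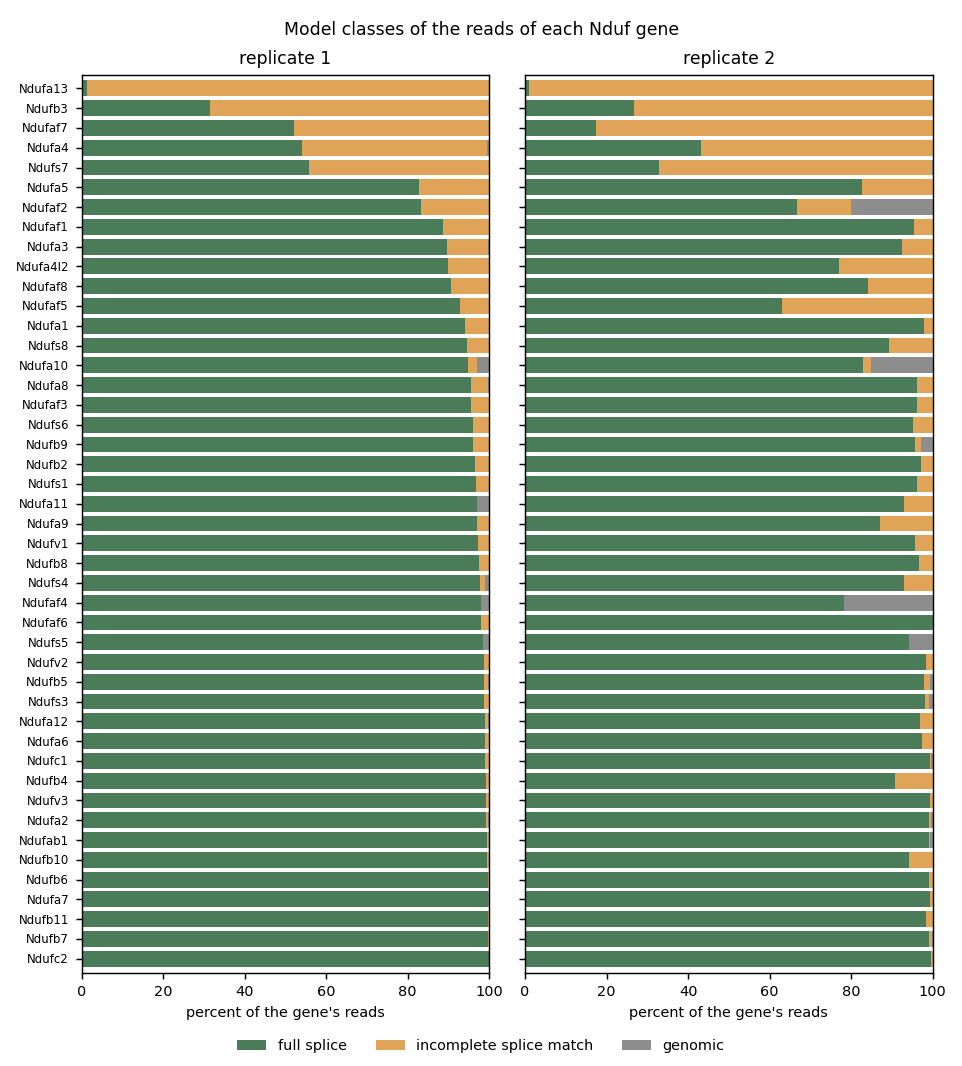
Percent of the reads of 45 of the 46 Nduf genes in full splice models (known and unannotated chains), incomplete splice matches and genomic models, in replicate 1 (left) and replicate 2 (right), ordered by the full splice share in replicate 1. In both libraries Ndufa13 is almost wholly incomplete and Ndufb3, Ndufa4, Ndufs7 and Ndufaf7 are incomplete in 44.2% to 82.5% of reads, while the median gene is full in 97.0% and 95.6%.

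For 36 Nduf genes at least 50 full splice reads in each library and at least 2 chains allowed a test of the leading splice form. Its median share was 97.4%, and that over all 1426 such genes 93.9%. It was under 90% in 6 of the 36 Nduf genes and in 528 of the 1426, 37.0%. The lowest was Ndufs1, where Ndufs1-201 held 52.5% of full splice reads in replicate 1 and 50.8% in replicate 2. The second form, Ndufs1-203 with 193 and 85 reads, has another donor site at its first exon and the same coding region. A further 104-base exon upstream of the start codon (chr1:63172154-63172257) was in 92 of 671 informative reads, 13.7%, in replicate 1 and in 49 of 290, 16.9%, in replicate 2, in models of the unannotated combination class.

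Ndufb2 was read as 2 forms of like abundance. Ndufb2-205 held 55.3% and 56.1% of full splice reads, 228 and 483 reads, and Ndufb2-202 had 170 and 355 reads. They have the same coding region, and the donor of the last intron, downstream of the stop codon, lies 4 bases apart. Ndufs8 used alternative first exons, with Ndufs8-205 at 77.4% and 82.8% (206 and 304 reads) and Ndufs8-201 at 53 and 55 reads. In Ndufab1 the leading form held 86.1% and 90.9%, and the second, Ndufab1-201 with 43 and 33 reads, has another last exon. Neither difference between libraries passed (adjusted p = 0.682 for Ndufs8 and 0.100 for Ndufab1, Fisher's exact test with Benjamini-Hochberg over 1426 genes), and in both genes the 2 forms share the coding region.

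The leading form differed between libraries in 2 of the 36 genes, by an adjusted p under 0.05 and at least 5 percentage points; over all 1426 genes 2.73% did. In Ndufv3, an accessory subunit of the NADH-binding end, the short form Ndufv3-202 held 348 of 386 full splice reads in replicate 1, 90.2%, and 761 of 782 in replicate 2, 97.3% (adjusted p = 5.53e-05). In Ndufa6 the leading form held 342 of 362 reads, 94.5%, in replicate 1 and 713 of 832, 85.7%, in replicate 2 (adjusted p = 0.00042). Its others were Ndufa6-206, annotated as a retained intron, with 8 and 68 reads, and the 2-exon coding form Ndufa6-205 with 10 and 46. The leading form had the smaller share in replicate 1 for Ndufv3 and the larger one for Ndufa6. Both other forms of Ndufa6 are shorter than its 590-base leading form, at 440 and 382 bases, and the long form of Ndufv3 is longer, at 1582 bases against 493; the part of length in these shares was not tested.

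Of 187 internal exons tested in 44 Nduf genes, 141 (75.4%) were skipped in under 1% of reads in both libraries, and over all genes 85.6% of 23569 exons were. The 187 include exons outside the annotation that few reads took in, and these count as skipped in nearly all reads. An example is an exon of Ndufb9 in 1 of 831 reads in replicate 1 and in 0 of 1196 in replicate 2. The 75.4% is therefore not a share of annotated exons. The 1092-base exon of Ndufv3, whose start is printed above, was the 1 Nduf exon that differed between the libraries; over all genes 0.0212% of exons did. It was in 34 of 385 informative reads in replicate 1, 8.83% (Wilson 95% interval 6.39 to 12.1%), and in 15 of 780 in replicate 2, 1.92% (1.17 to 3.15%), with an adjusted p of 0.000761. In both libraries the form without those 364 codons had most of the reads.

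Coding exons with an intermediate use lay in assembly factors. The 57-base exon of Ndufaf6 was in 31 of 48 reads in replicate 1, 64.6%, and in 29 of 40 in replicate 2, 72.5%; its skipping chain of 8 exons, with 14 and 10 reads, is not in the annotation. The 144-base exon of Ndufaf7 was in 22 of 27 and in 24 of 27 reads, 81.5% and 88.9%. The intervals of both exons overlapped between the libraries and neither was called. The 117-base exon of Ndufa5 was skipped more rarely but on many reads: it was in 497 of 546 reads, 91.0%, in replicate 1 and in 978 of 1089, 89.8%, in replicate 2, and 47 and 106 reads were of the annotated short form Ndufa5-202. The 4 exons printed above were picked with a length that is a multiple of 3, so inclusion keeps the reading frame. The 116-base coding exon of Ndufa6, whose length is not such a multiple, was skipped in 10 of 353 reads in replicate 1, 2.83%. In replicate 2 it was skipped in 46 of 760, 6.05%. An 83-base exon variant of Ndufa11 was also at an intermediate share, 18 of 21 and 34 of 44 reads, counted against skipping alone. Together 4 of the 187 Nduf exons, 2.14%, lay between 10% and 90% in both libraries, those of Ndufs1, Ndufaf6, Ndufaf7 and Ndufa11, and 411 exons, 1.74%, over all genes.

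**Figure D4:**
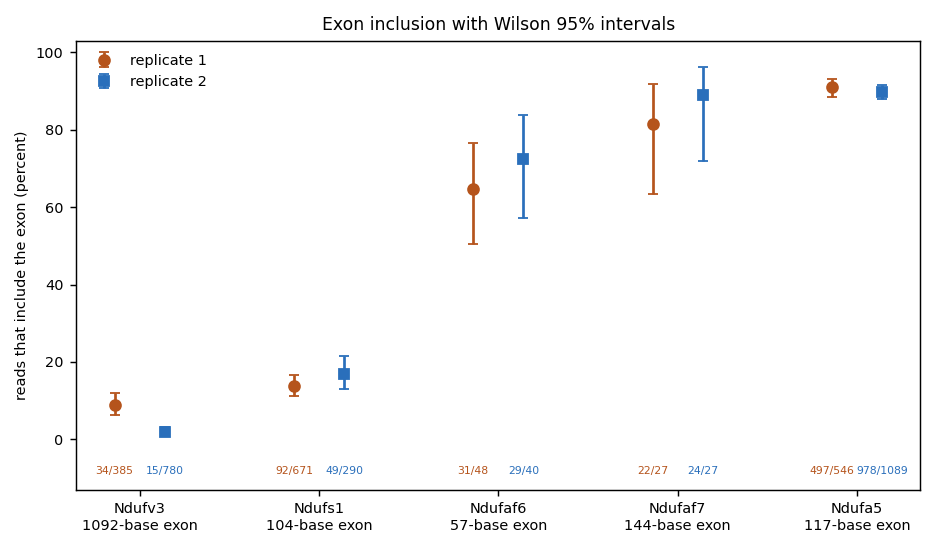
Percent of informative reads that include an exon, with Wilson 95% intervals and the reads behind each value, in replicate 1 (circles) and replicate 2 (squares). The Ndufv3 exon is at 8.83% and 1.92%, the Ndufs1 exon at 13.7% and 16.9%, and the exons of Ndufaf6, Ndufaf7 and Ndufa5 are in most reads with overlapping intervals between the libraries.

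The promoters of these genes were searched for motifs known from nuclear genes of mitochondria. RefSeq windows on GRCm38, 250 bases before to 50 after the annotated start, were matched for 40 of the 46 genes, in 42 windows. The full NRF1 motif, which is GCATGCGC with GC before it and reads the same on both strands, was in 3 of 40 genes (7.50%), in 0.971% of all 32851 windows and in the windows of 2.63% of 6779 protein-coding genes tested here. Its core, GCATGCGC alone, was in 5 (12.5%, against 2.71% of all windows and 6.79% of tested genes). The full YY1 motif, which is AAGATGG with CGGC after it, was in 5 genes (12.5%, against 0.633% and 2.29%), namely Ndufa9, Ndufaf8, Ndufs4, Ndufs6 and Ndufs7, and its core AAGATGG, contained in it, in 8 (20.0%, against 6.34% and 9.37%). The motif TCAAGGTCA of oestrogen-related receptors was in 0 of 40 (0.423% and 0.266%) and its core AAGGTCA in 3 (7.50%, against 4.72% and 3.82%). The ETS motif CCGGAAG was in 6 of 40 (against 8.86% and 21.8%) and the TATA box TATAAA in 4 of 40 (against 13.6% and 8.57%). Both strands were read, and a match is a description of letters, not of binding.

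The 2 upstream windows with the full NRF1 motif are printed as examples with the motif in capitals, 110 bases each on the plus strand. They belong to Ndufa11 (chr17:56717652-56717761, motif 60 bases before the start) and Ndufaf4 (chr4:24897920-24898029, motif 113 bases before it). Between the libraries Ndufa11 was called and Ndufaf4 was not.
Ndufa11 promoter: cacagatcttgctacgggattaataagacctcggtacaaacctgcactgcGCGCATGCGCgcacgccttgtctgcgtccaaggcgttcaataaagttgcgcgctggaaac
Ndufaf4 promoter: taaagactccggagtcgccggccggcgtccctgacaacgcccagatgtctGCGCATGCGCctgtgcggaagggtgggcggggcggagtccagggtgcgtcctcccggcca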

How the data were processed

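The deposited tables hold, per the file headers, raw read counts for each transcript model with its class and length, and the deposited annotations give the exons of those models (counted from 1, mm10). The attributes of the annotations name TALON, which sorts long reads into models. The sources used give no aligner, platform or TALON version. The length of a known model is that of the annotated transcript, whatever the ends of its reads.

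The reads of a gene were summed over all models assigned to it. The 46 members and all lists were chosen with earlier results of these data known. The 8973 genes that reached 10 reads over both libraries were tested with Fisher's exact test (scipy 1.17.1) against all other gene reads, and called with an adjusted p under 0.05 and a log2 ratio of at least 1 in size, on CPM scaled by TMM (edgeR 4.0.16) with a prior count of 0.5. With 2 libraries of 1 group no quasi-likelihood fit was possible. The leading splice form (at least 50 full splice reads in each library) and internal exons (reads with both junctions against the skipping junction, at least 20 in each) were tested likewise, with at least 5 percentage points. Alternatives were another scaling (DESeq2 1.42.0 size factors, totals), other minimums, model classes and prior counts, adjusted p alone, a lowess trend over length removed, and edgeR's exact test with a common dispersion (biological coefficient of variation 0.393 over 5847 genes). The tests were also run on simulated counts with planted differences and counting error only. Such counts lack the further spread between real libraries, so that check cannot vouch for the calls made here. Levels are named for the 10 highest and 5 lowest genes, the 3 highest of each role, up to 12 called genes by size of the ratio, and genes with a splice form or exon past a limit; Ndufv1, Ndufa8, Ndufa9, Ndufa10, Ndufs4, Ndufs5, Ndufs6, Ndufb5, Ndufb6, Ndufb8, Ndufb11, Ndufc2 and Ndufaf1 were named after their values were seen. Sequences are from GENCODE M21 and RefSeq. Of the promoters, Ndufa2, Ndufa4l2, Ndufaf6, Ndufb9 and Ndufs1 were among those with no window used here. One gene enters the counts and summed values and is not reported here by itself.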

Additional observations from a re-analysis of the deposited data

Results flagged for a closer look

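A gene outside the 46 carried a clear signal. Ndufb1-ps, which GENCODE M21 types as a bidirectional promoter lncRNA on chromosome 12 and which the naming rule on protein-coding genes therefore leaves out, had 310 reads in replicate 1 and 886 in replicate 2 (248.2 and 800.8 CPM, log2 ratio -1.97). These values are above the limit that a count of 0 allows and within the range of the complex I subunits. The RefSeq gene table lists the symbol Ndufb1-ps as a synonym of Ndufb1, a protein-coding gene. The 4 other Nduf genes outside the rule, all processed pseudogenes, had 0 reads in both libraries, except Ndufb4c with 1 read in each. How the authors assigned reads that match both a gene and a processed copy is not stated in the labels or headers, so counts of genes with such copies are uncertain to that extent.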

How the results depend on the processing

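Shares of all tested genes are given in brackets. The 30 calls higher in replicate 2 (11.4%) became 23 with scaling by the total (9%) and 28 with DESeq2 size factors (10.8%). They were 31 with full splice models (10.9%), 26 of them among the 30, and 36 with adjusted p alone (13.3%). With the length trend removed they became 3 (4.88%) and with edgeR's exact test 0 (0.111%). The dispersion of that exact test came from the same 2 libraries and includes the difference under test, so its 0 decides nothing. In an alternative chosen after seeing the data, full splice models and the length trend removed together, they became 4 (4.44%). Higher in replicate 1 were 0 in each of these except 4 with adjusted p alone. Scaling by the total moved the median log2 ratio of all genes by 0.27, and calls higher in replicate 2 were then 41.9% of all calls, against 56.2%. Removal of the length trend turned the log2 ratio to 0.0017 for Ndufa1, 0.0537 for Ndufa4, 0.75 for Ndufaf6, 0.29 for Ndufb9, 0.19 for Ndufs8 and 0.069 for Ndufv3. In all it changed the sign for 12 of the 46 genes, the others being Ndufa8 (0.18), Ndufaf1 (0.27), Ndufb5 (0.04), Ndufb6 (0.19), Ndufb8 (0.21) and Ndufc2 (0.43). The log2 ratio of Ndufaf6 was 0.14 with scaling by the total; the cause of the length trend was not tested. The share of gene reads was 1.65 to 3.40% when either replicate was left out. Under full splice models levels fell most for Ndufa13 (13.3 CPM against 1080), Ndufaf7 (27.4 against 92.3), Ndufb3 (303.5 against 899.1), Ndufs7 (599.4 against 1281) and Ndufa4 (1499 against 2703), and the other named levels moved by less than 1.5 times. Of these moves those of Ndufa13 and Ndufaf6 (45.4 against 38.9) exceeded 1 SD, which between 2 such different libraries is wide. No paired analysis was possible because the labels give 1 group. With 2 libraries the spread between animals and that between libraries cannot be told apart, and genes with few reads, such as Ndufaf2, Ndufaf3 and Ndufa4l2, have wide counting errors.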
